A study of Mus musculus with 12 samples.

Results

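Of the 38244 open-chromatin regions of C2C12 myotubes in the merged peak table, 644 (1.68%) were called as a peak in all 3 control libraries and in none of the 3 libraries of myotubes kept in medium conditioned by tumour cells. These control-only regions were chosen from the per-library peak lists that the table records for each region. The deposited tag values were not read for the choice, but each peak call itself rests on the signal of its library. C2C12 cells are mouse myoblasts that stop dividing and fuse into long myotubes with many nuclei when serum is lowered. The treated cultures were exposed for 24 hours to medium in which cells of the mouse colon carcinoma C26 (Colon-26) had grown, and the control cultures were not, with 3 libraries each. The labels give C3H as the genotype of every culture and call the cell type myoblast, although the titles and protocol describe differentiated myotubes. The same study holds polyA RNA of muscle from C57BL/6 mice, with 3 libraries taken 22 days after 500000 Lewis lung carcinoma (LLC) cells were placed under the skin and 3 after PBS. The muscle, its fibre types and the age of the mice are not given in the labels. Cells were seeded in triplicate wells, and nothing in the labels says that libraries of a group came from separate cultures or animals, so their spread may be technical.

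ATAC-seq marks DNA that the Tn5 transposase can reach. Accessible stretches of a nucleus are mostly promoters, where transcription starts, and enhancers, which lie in introns or between genes and carry the binding sites of the factors that set a cell's identity. Muscle wasting in cancer, called cachexia, involves less signalling through the IGF, AKT and mTOR pathway, more protein breakdown, and changes in the activin and BMP branches of TGF-beta signalling. A peak call is a yes-or-no decision on a library, so a region left uncalled in one library can still hold signal there.

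The 6 promoters printed here are shown because they are the control-only regions with the highest control signal whose nearest gene has a RefSeq promoter window (GRCm38.p6) that overlaps the region. The requirement of an overlapping window was set after values were seen. Each line gives the 250 bases before the start, 5′ to 3′ on the gene's strand, and capitals mark the bases that lie inside the control-only region. Trip10 encodes an adaptor between CDC42 and actin, Bbc3 the p53-induced cell death protein PUMA, Bcar3 a docking protein of integrin signalling, Nek8 a kinase of cilia, and Sf3b3 a subunit of the spliceosome. Gm17767 is a predicted gene of no known role. The stretches lie at chr17:57249201-57249450 (+ strand) for Trip10, chr7:16310011-16310260 (+) for Bbc3, chr3:122483319-122483568 (+) for Bcar3, chr11:78176667-78176916 (-) for Nek8, chr1:51596719-51596968 (-) for Gm17767 and chr8:110846804-110847053 (-) for Sf3b3.
Trip10: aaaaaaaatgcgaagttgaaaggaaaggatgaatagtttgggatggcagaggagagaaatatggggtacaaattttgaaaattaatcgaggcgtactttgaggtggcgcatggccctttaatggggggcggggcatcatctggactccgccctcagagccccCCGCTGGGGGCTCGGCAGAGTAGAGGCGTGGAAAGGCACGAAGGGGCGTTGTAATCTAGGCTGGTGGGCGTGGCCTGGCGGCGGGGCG
Bbc3: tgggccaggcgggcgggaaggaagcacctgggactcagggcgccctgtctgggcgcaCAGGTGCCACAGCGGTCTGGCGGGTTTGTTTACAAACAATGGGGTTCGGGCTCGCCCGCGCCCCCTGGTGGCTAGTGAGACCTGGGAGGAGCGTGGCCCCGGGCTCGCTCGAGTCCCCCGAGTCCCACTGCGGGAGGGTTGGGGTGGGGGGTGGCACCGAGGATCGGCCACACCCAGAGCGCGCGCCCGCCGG
Bcar3: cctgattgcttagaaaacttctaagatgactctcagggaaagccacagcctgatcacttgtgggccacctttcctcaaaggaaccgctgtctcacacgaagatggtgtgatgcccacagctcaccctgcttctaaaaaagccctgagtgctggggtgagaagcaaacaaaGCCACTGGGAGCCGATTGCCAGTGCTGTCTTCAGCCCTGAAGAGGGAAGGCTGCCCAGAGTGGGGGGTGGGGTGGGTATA
Nek8: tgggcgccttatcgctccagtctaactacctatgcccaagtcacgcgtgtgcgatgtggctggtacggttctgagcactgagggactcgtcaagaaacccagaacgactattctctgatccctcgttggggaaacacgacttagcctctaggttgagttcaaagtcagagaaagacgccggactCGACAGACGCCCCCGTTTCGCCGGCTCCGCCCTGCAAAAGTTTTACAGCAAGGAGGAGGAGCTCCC
Gm17767: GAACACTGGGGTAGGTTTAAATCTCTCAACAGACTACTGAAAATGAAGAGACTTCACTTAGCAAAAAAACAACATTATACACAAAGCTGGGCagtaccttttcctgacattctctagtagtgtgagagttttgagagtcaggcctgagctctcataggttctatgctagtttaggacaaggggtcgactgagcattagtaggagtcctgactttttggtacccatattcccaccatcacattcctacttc
Sf3b3: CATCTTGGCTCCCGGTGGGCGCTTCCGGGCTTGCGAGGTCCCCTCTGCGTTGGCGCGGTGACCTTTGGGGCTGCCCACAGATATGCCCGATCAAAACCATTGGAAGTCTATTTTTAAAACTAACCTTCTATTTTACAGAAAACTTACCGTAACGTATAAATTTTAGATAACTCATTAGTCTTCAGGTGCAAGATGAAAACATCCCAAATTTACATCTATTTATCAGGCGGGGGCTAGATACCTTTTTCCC

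The Bbc3 stretch is the richest of these in G and C, at 72.4% with 23 CpG pairs, and the Gm17767 stretch the poorest, at 42.4% with 1 CpG pair. The word GGGCGG or its complement, bound by SP and KLF factors, occurs 2 times in the Trip10 stretch and once each in the Bbc3 and Nek8 stretches. It is not in the Bcar3, Gm17767 and Sf3b3 stretches. The matches of Trip10 and Bbc3 lie outside the control-only region, and that of Nek8 lies inside it. The Sf3b3 region covers all 250 bases, while the Trip10, Bcar3 and Nek8 regions cover the last 88, 80 and 66 bases before the start and run on into the gene. In all, control-only regions touched 49 RefSeq promoter windows of 44 genes, each window running from 250 bases before to 50 after a start. Their median GC content was 55.7%, against 62.3% in the 9781 windows touched by regions called in all 6 libraries and 52.7% in all 32851 windows. The E-box CANNTG, the site of myogenic factors among others, was in 75.5% of the 49 windows, against 59.7% of the windows touched by regions called everywhere and 72.3% of all windows. Its MyoD form CAGCTG was in 22.4%, against 14.8% and 16.3%. GGAATG, the word of TEAD factors, was in 16.3%, against 11.2% and 14.7%. GGGCGG was in 42.9%, below the 69.9% of windows at regions called everywhere and above the 35.7% of all windows. CCAAT, bound by NF-Y, was in 20.4%, against 40.5% and 37.4%. TGTGGT of RUNX factors was in 4.08%, against 11.6% and 16.8%, and TGANTCA of AP-1 in 2.04%, against 4.98% and 7.81%. Words were read on both strands, CAGCTG is itself a CANNTG, and a match or its absence says nothing of whether a factor binds. The shares rest on few windows, some of which overlap each other, and were not tested. They count words anywhere in a window, inside or outside the region that touches it. The Gm40659 window, for example, was touched over 2 bases only.

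As deposited, the signal of a region is its tags per 10 M tags of the library (M, 10 to the power of 6). Depth was 12.8, 14.4 and 18.2 M tags in C26 medium and 11.2, 14.8 and 10.1 M in controls. The share of tags inside peaks was 13.0%, 12.0% and 13.5% in C26 medium and 27.0%, 13.1% and 17.9% in controls, so control 2 resembled the C26 libraries and control 1 stood apart. All peaks together sat lower in C26 medium, with a median log2 difference of -0.53 (log2 of signal + 1, C26 minus control) that median-of-ratios scaling brought to -0.02. Of 12 myotube marker genes 10 had a peak. Of 12 peaks nearest to epithelial markers of colon carcinoma 1 was called only in C26 medium, and 0 peaks lay nearest to 5 erythroid markers.

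Control-only regions were weak even in the cells in which they were called. Their median signal was 7.41, 7.64 and 7.97 in C26 libraries 1 to 3 and 26.8, 13.8 and 18.3 in control libraries 1 to 3. Regions called in all 6 libraries had medians of 37.5, 34.7 and 39.3 in C26 medium and 79.5, 37.5 and 51.4 in controls. Only 2 of the 644 reached, in controls, the median of the regions called everywhere. In each C26 library the median stood below that of every control library, including control 2. Scaled to tags in peaks, the medians were 5.70, 6.37 and 5.92 per M in C26 medium and 9.92, 10.6 and 10.2 per M in controls. On that scale the control libraries lay within a narrow band, and so did the C26 libraries.

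**Figure D1:**
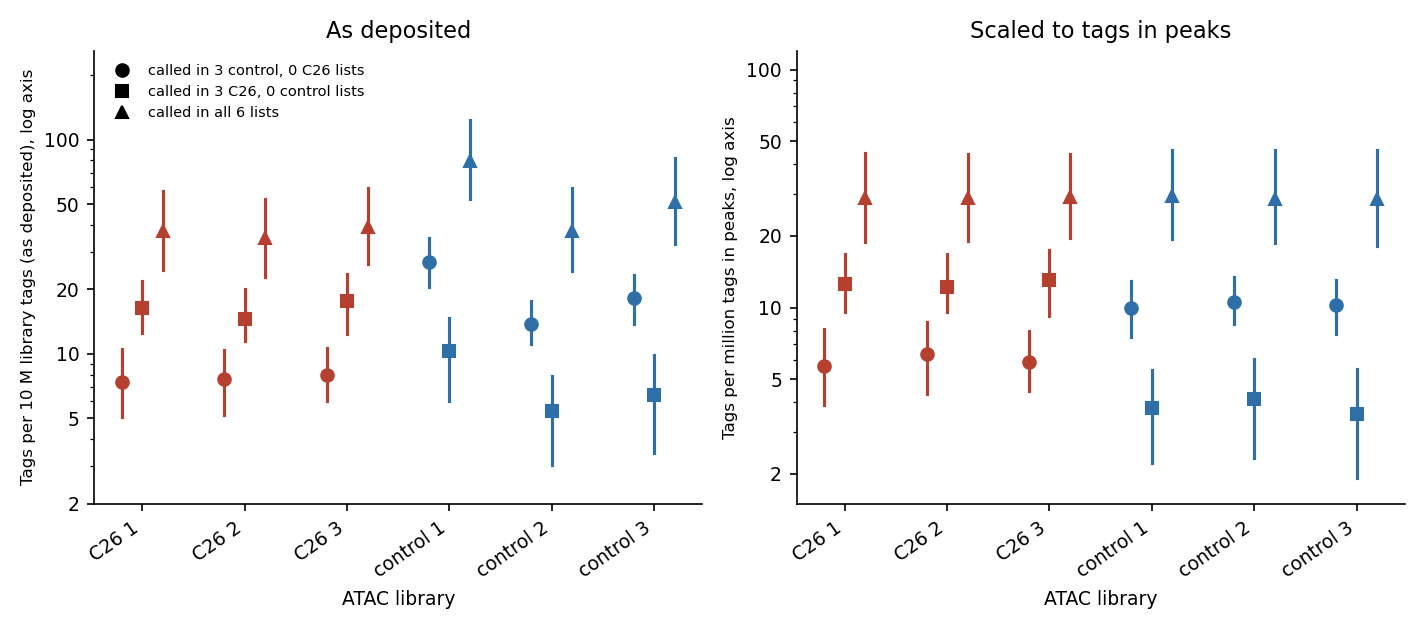
Median signal (symbols) and quartiles (vertical lines) of regions in each ATAC library, on log axes, for control-only regions (circles), regions called only in C26 medium (squares) and regions called in all 6 libraries (triangles), with C26 libraries in red and control libraries in blue. Control-only regions have medians of 7.41 to 7.97 in C26 medium and 13.8 to 26.8 in controls as deposited, and 5.70 to 6.37 against 9.92 to 10.6 per M tags in peaks.

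Because the peak calls come from these same libraries, the difference in signal describes the choice. The limma calls on it are given only as counts beside those of all peaks, and they are no independent test of a difference in these regions. The median log2 difference of the 644 regions was -1.18, with quartiles of -1.45 and -0.92 and a range from -3.23 to 0.34. In 563 regions (87.4%) every C26 library was below every control library, as in 33.3% of all peaks, and the groups overlapped in 81. Per M tags in peaks the same held in 435 regions, beside 19.7% of all peaks. The C26 mean was at most 50% of the control mean in 505 regions (78.4%, beside 13.4% of all peaks). It was above the control mean in 5 (0.776%, beside 13.9%). Limma called 177 of the 630 regions with a mean of at least 5 lower at an adjusted p under 0.05, beside 1.88% of all peaks tested (704 of 37358 lower, 428 higher), and 0 higher. After median-of-ratios scaling it called 312 lower and 1 higher, beside 12.7% of all peaks (4753 lower, 6368 higher). Single libraries set the count as deposited. Without control 2, limma called 562 of the 630 lower, beside 53.1% of all peaks tested, and without control 1 it called 275, beside 7.01%. Without any one of the other 4 libraries it called 20 to 28, beside 0.0857% to 0.137%. These counts follow from the rule.

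**Figure D2:**
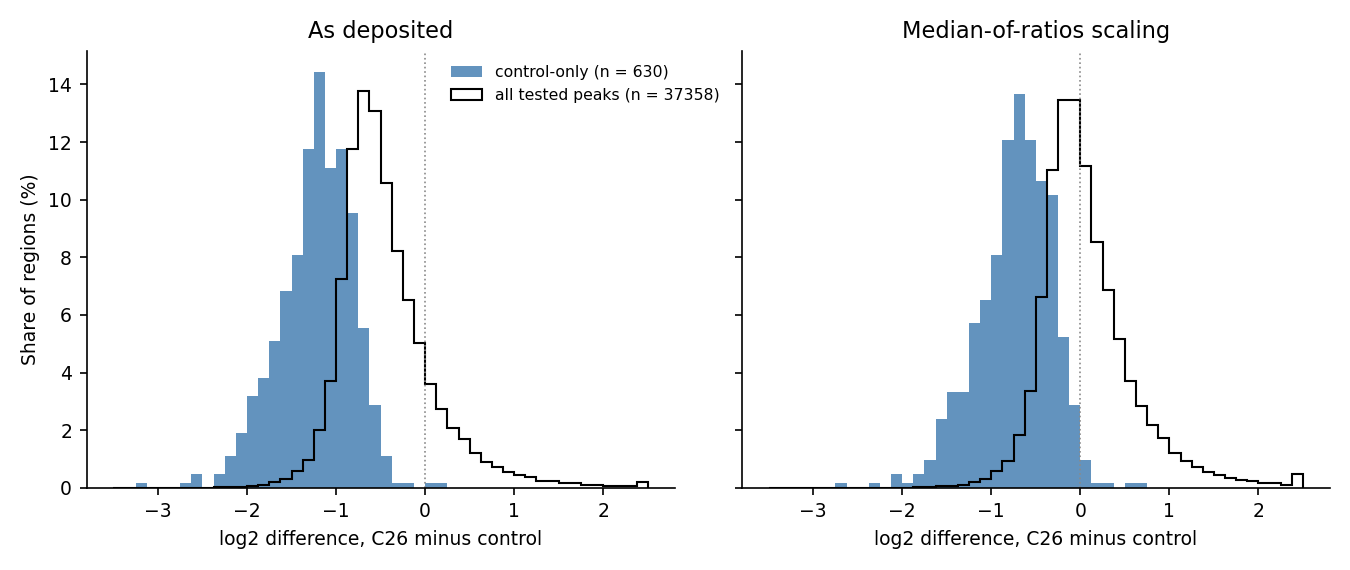
Share of regions by log2 difference in ATAC signal (C26 minus control) for control-only regions (filled, n = 630) and all peaks tested (line, n = 37358), as deposited and after median-of-ratios scaling, with values beyond either end placed in the last bin. The medians of all tested peaks are -0.54 and -0.02 in these fits, and those of control-only regions are -1.19 and -0.70.

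Just outside the rule, the 1327 regions called in all 3 control libraries and 1 C26 library had a median log2 difference of -0.91, and the 7 called in 2 control and 0 C26 libraries -1.08. The strongest of the 1327, in an intron of Bahcc1, had 45.7, 35.4 and 53.8 tags in C26 medium and 158, 79.3 and 97.4 in controls. The strongest of the 7, at the promoter of Nog, a secreted BMP inhibitor, had 16, 16 and 27.5 tags in C26 medium and 68.4, 37.8 and 42.5 in controls. Signal in C26 medium was not absent inside the rule either, since 34 of the 644 regions had a C26 mean at or above 16.2, the median of the 915 regions called only in C26 medium. At the other end, 12 regions held at most 1.1 tags in every library and 8 held 0 in all, among them the promoter of Tmem254a and a satellite repeat nearest to Atg7. Such regions carry a peak call with no counted tag, and the cause was not tested.

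One of the strongest control-only regions lay 2732 bp before the start of Cirbp, a cold-induced RNA-binding protein, with 37.5, 27.4 and 34.3 tags in C26 medium and 87.1, 46.6 and 70.7 in controls. The groups did not overlap there, and after median-of-ratios scaling the log2 difference was -0.46. Another, an intergenic region inside a DNA transposon 210566 bp from the start of 4933400L20Rik (chr8:103813972-103814759), had the lowest log2 difference of all control-only regions, -3.23. It held 2.34, 6.59 and 5.77 tags in C26 medium and 80.4, 32.7 and 50.9 in controls, and its difference was still -2.75 after scaling.

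Among the 10 with the highest control mean were also regions at Trip10, Ccn1, Nrg1 and Elk3. The region 177 bp past the start of Trip10 held 23.4, 18.1 and 24.7 tags in C26 medium and 73.3, 32.4 and 52.9 in controls. A region at the end of Ccn1, a matricellular protein and a target of YAP, held 18, 9.72 and 17.6 against 60.8, 39.8 and 53.9 tags. A region 168768 bp from Nrg1, the growth factor neuregulin, held 9.36, 13.2 and 11.5 against 74.2, 29.0 and 47.5 tags. The C26 values were all below the control values at each of these. An intronic region of Elk3, an ETS factor, averaged 22.5 ± 3.63 tags in C26 medium and 52.1 ± 21.2 in controls (SD, n = 3 each). Regions nearest to Grem1, Celf2 and 6330415G19Rik were also in this group.

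The lowest log2 differences after 4933400L20Rik belonged to regions with few tags in C26 medium. A region 1259689 bp from Gm32810 held 5.07, 1.74 and 1.65 tags in C26 medium and 36.2, 20.3 and 15.3 in controls (log2 difference -2.73). An intronic region of Nkd1, an inhibitor of Wnt signalling, held 6.24, 6.25 and 4.12 against 45.1, 32.7 and 35.6 tags (-2.58). Its control values were close to one another although control 1 stood apart over all peaks. Regions near Rin2, Supt20, Celf2, Atp6ap2, 4930590L20Rik, Nr2f1 and Rptor filled the other places, with differences from -2.55 to -2.21.

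Most control-only regions lay away from promoters. Of the 644, 43.9% were annotated as intergenic, 42.2% as intron and 7.30% (47) as promoter, and 81 (12.6%) lay within 1000 bp of a start. Of regions called in all 6 libraries, 30.3% were intergenic, 32.2% intron and 28.6% promoter. Regions called only in C26 medium were more distant still, with 52.7% intergenic, 0.984% promoter and 2.19% within 1000 bp of a start. The median distance to a start was 21105 bp in control-only regions, 35003 bp in C26-only regions and 7564 bp in regions called everywhere. Their median width was 379 bp, against 340 bp in C26-only regions, 629 bp in regions called everywhere and 521 bp in all peaks. Long terminal repeats held 6.37% of control-only, 10.4% of C26-only and 4.91% of all regions, and LINE elements 2.80%, 9.18% and 2.99%. CpG islands held 2.64% of control-only regions and 0.109% of C26-only ones. Chromosome 1 carried 9.94% of control-only regions and 7.00% of all peaks. The median control signal was 19.6 tags in control-only regions, 7.31 in C26-only regions and 55.8 in regions called everywhere, and the part of signal strength in these shares was not tested.

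**Figure D3:**
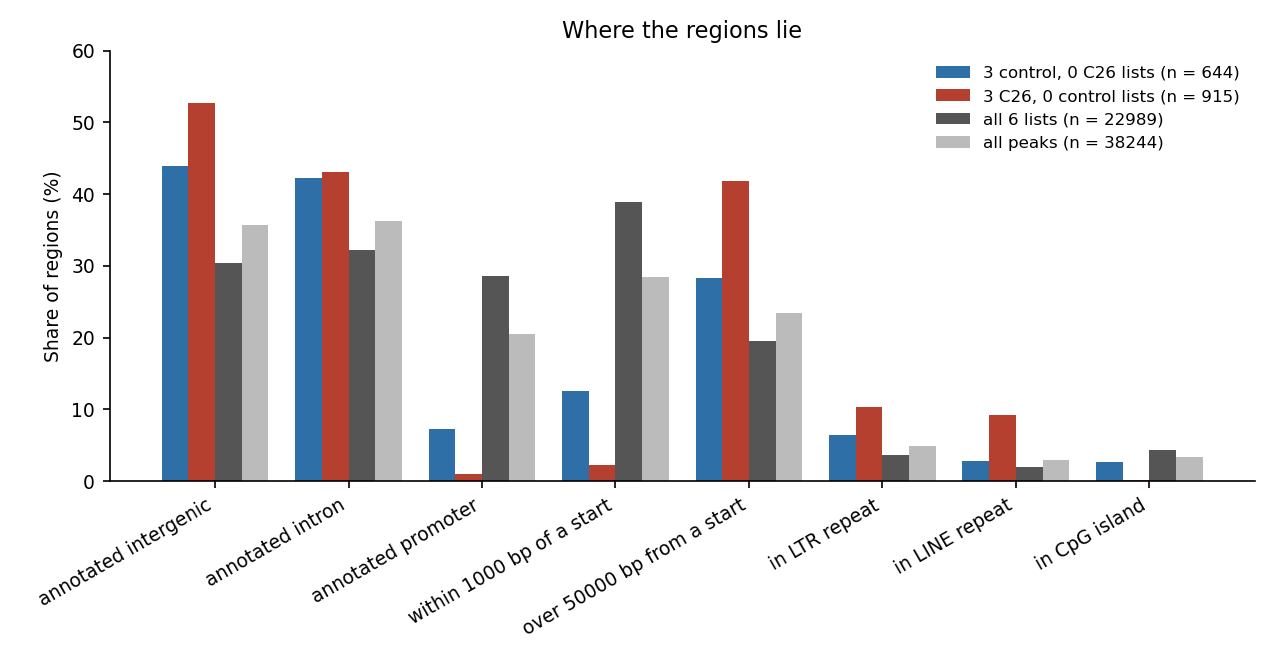
Share of regions (%) by annotation, distance to the nearest start and repeat class for control-only regions (blue), regions called only in C26 medium (red), regions called in all 6 libraries (dark grey) and all peaks (light grey). In each feature plotted the share of control-only regions lies between that of C26-only regions and that of regions called everywhere, as with 12.6%, 2.19% and 38.9% within 1000 bp of a start.

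Of the 81 regions near a start, the 15 with the highest control means included those of Acvr1, Grem1, Bbc3 and Bcar3. Acvr1, a type I receptor for BMPs and activins, had a region 401 bp past its start with 15.6, 18.4 and 21.2 tags in C26 medium and 62.1, 33.8 and 40.5 in controls. Grem1, a secreted BMP inhibitor, had one 963 bp past its start in a CpG island with 21.9, 19.8 and 16.5 against 63.4, 42.5 and 40.5 tags. The region of Bbc3 held 16.4, 16 and 15.7 against 55.0, 25.7 and 36.6 tags. The C26 libraries differed little from each other at Bbc3, and the C26 and control values did not overlap at any of these genes. Bcar3 had 10.5, 10.8 and 13.2 against 57.6, 28.4 and 31.1 tags, with a log2 difference of -1.61, the lowest of the 15. Asxl2, a Polycomb-related factor, and Zbtb7c, a zinc-finger factor, had the smallest differences, -0.75 and -0.78, and after scaling these were -0.23 and -0.26. Acvr1 and Bcar3 also had a stronger peak near the start that was called in all 6 libraries. For Acvr1 that peak, 734 bp before the start, had 44.2 ± 5.21 tags in C26 medium and 63.6 ± 23.9 in controls, a log2 difference of -0.46 that turned to 0.07 after scaling. For Bcar3 it had 50.7 ± 9.20 against 100.2 ± 45.8 tags. For Akt1, Grem1, Trip10 and Tnnt3 the control-only region was the strongest peak within 1000 bp of a start.

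The distinct nearest genes numbered 619, of which 596 had 1 control-only region, 22 had 2 and Plekhb2, a membrane-trafficking protein, had 3. Nearest gene is the deposited annotation by distance and names no target. The 3 regions of Plekhb2 lay at its promoter, 17424 bp and 530991 bp past the start. The promoter region held 6.24, 11.8 and 11.3 tags in C26 medium and 33.5, 10.1 and 23.2 in controls, so that control 2 fell below 2 of the C26 libraries. Gadd45a, a stress-induced partner of p53 signalling, had a region in an intron of a noncoding transcript beside it with 8.97, 14.2 and 11.5 against 52.7, 18.2 and 29.2 tags. Its second region, 91567 bp before the start, held 5.85, 6.59 and 9.61 against 31.7, 21.3 and 31.6 tags. Both Gadd45a regions were separated between the groups, with log2 differences of -0.83 and -1.32 after scaling. The promoter peak of Gadd45a, called in all 6 libraries, was separated as well. It had 96.3 ± 3.85 tags in C26 medium and 151 ± 50.5 in controls, with a log2 difference of -0.06 after scaling. Slc40a1, the iron exporter ferroportin, had 1 region 31097 bp past the start with 7.02, 7.64 and 8.79 against 50.5, 36.1 and 29.2 tags. Its promoter region was among the overlapping ones, with 16.8, 13.5 and 10.7 against 26.4, 19.2 and 12.9 tags, and its log2 difference of -0.45 turned to 0.06 after scaling. Foxp1, a forkhead repressor, and Kif13b, a kinesin, had 2 regions each, with differences of -0.79 and -2.01 for Foxp1 and -1.92 and -1.10 for Kif13b. The remaining genes among the 10 with most regions were Celf2 and 4 predicted or uncharacterised loci.

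Genes of the IGF, insulin and mTOR list had 6 control-only regions among their 95 peaks (6.32%, against 1.68% of all peaks). The lists were written with earlier results known, and the shares were not tested. Among the ligands, Igf1, the growth factor itself, had a weak region 24 bp from a start. It held 3.12, 2.08 and 3.02 tags in C26 medium and 9.83, 5.74 and 9.39 in controls. Of the 7 peaks of Igf1, 1 was control-only, 2 were called only in C26 medium and 3 in all 6 libraries. Igfbp5, which binds IGFs outside the cell, had its single peak 3284 bp before the start with 8.19, 6.94 and 9.89 against 30.8, 16.9 and 20.8 tags. Both regions were lower in every C26 library than in every control library. Akt1, the kinase that carries the signal inward, had 15.2, 10.8 and 12.9 against 48.3, 22.6 and 29.7 tags in an intron 826 bp past the start. Rptor, the mTORC1 subunit Raptor, had 2.73, 4.86 and 1.65 against 30.4, 11.8 and 13.4 tags in an intron (log2 difference -2.21). Sesn2, a stress-induced inhibitor of mTORC1, had 21.5, 16.3 and 21.2 against 61.7, 30.7 and 47.0 tags 3596 bp before the start.

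Ddit4 encodes REDD1, an inhibitor of mTORC1 and the protein in the title of the study. One of its 8 peaks was control-only, an intergenic region 18319 bp before the start (chr10:59969871-59970308). It held 3.90, 6.25 and 4.12 tags in C26 medium and 12.1, 6.41 and 11.9 in controls. The highest C26 library and control 2 were nearly level there, and the log2 difference was -0.92 as deposited and -0.46 after scaling. The promoter peak of Ddit4, called in all 6 libraries, was more than 10 times as strong, with 106 ± 6.17 tags in C26 medium and 190 ± 58.5 in controls. Its log2 difference was -0.80 as deposited and -0.27 after scaling. Another peak, 4076 bp past the start, was called in 3 C26 libraries and 1 control library. It had 62.0, 41.0 and 64.3 tags in C26 medium and 73.3, 30.7 and 43.5 in controls. As deposited the groups overlapped there with a log2 difference of 0.24, and after scaling the difference was 0.77.

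**Figure D4:**
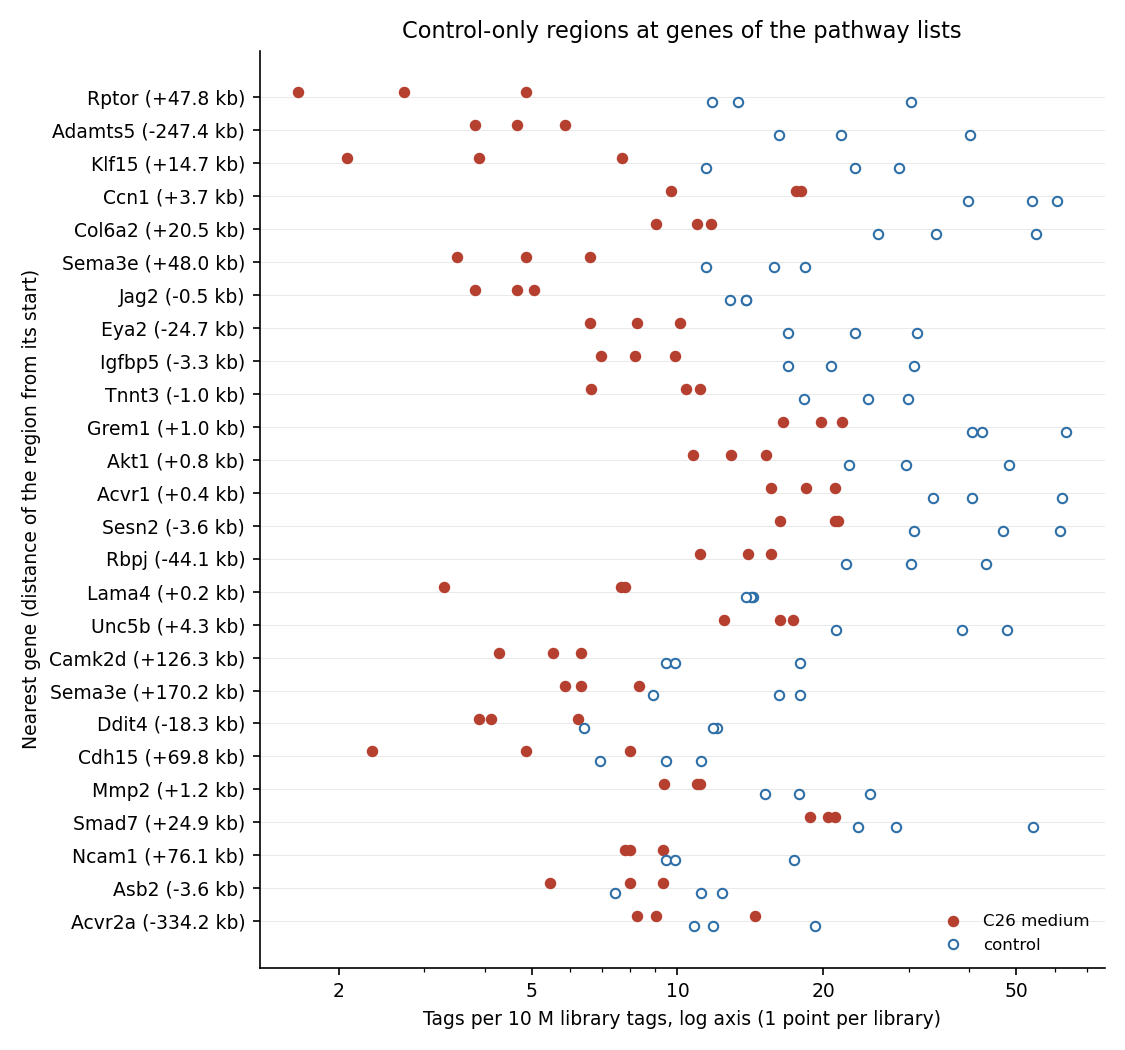
ATAC signal in each library (tags per 10 M library tags, log axis, 1 point per library) at control-only regions nearest to genes of the pathway lists that are reported here, with C26 libraries as filled red points above control libraries as open blue points, ordered by log2 difference. Rptor at the top has 1.65 to 4.86 tags in C26 medium and 11.8 to 30.4 in controls, and Acvr2a at the bottom 8.24 to 14.4 and 10.8 to 19.2, where the groups overlap.

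Matrix and adhesion genes had 5 control-only regions among 232 peaks (2.16%). Col6a2, a chain of collagen VI around muscle fibres, had 11.7, 9.02 and 11.0 tags in C26 medium and 55.0, 26 and 34.1 in controls in an intron. Adamts5, a protease that cleaves proteoglycans, had 5.85, 3.82 and 4.67 against 40.2, 16.2 and 21.8 tags at a region 247400 bp away. Lama4, a laminin chain, had 7.80, 7.64 and 3.30 against 14.3, 14.2 and 13.8 tags in its 5' untranslated exon. Mmp2, a gelatinase, had a smaller difference, -0.80 as deposited and -0.30 after scaling. The groups were apart at all 4, and the fifth region was nearest to Col3a1, a chain of fibrillar collagen III.

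Of the TGF-beta, activin and BMP list, 4 of 187 peaks (2.14%) were control-only, at Acvr1 and Grem1 as given above and at Smad7 and Acvr2a. Smad7, the inhibitory SMAD, had 18.7, 20.5 and 21.2 tags in C26 medium and 54.1, 23.6 and 28.2 in controls in a region 24850 bp past the start. Acvr2a, the type II receptor of myostatin and activin, had 14.4, 9.02 and 8.24 against 19.2, 10.8 and 11.9 tags 334250 bp before its start, with overlap. After scaling the log2 differences were -0.17 for Smad7 and 0.13 for Acvr2a, against -0.71 for Acvr1 and -0.75 for Grem1.

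The Notch and Hippo list had 3 of 128 peaks (2.34%), at Ccn1, Rbpj and Jag2. Rbpj, the DNA-binding partner of Notch, had 15.6, 11.1 and 14.0 tags in C26 medium and 43.3, 30.4 and 22.2 in controls. Jag2, a Notch ligand, had its single peak at the promoter with 5.07, 3.82 and 4.67 against 13.9, 12.8 and 13.8 tags, and values of each group lay close together. Guidance and neural adhesion genes had 4 of 197 (2.03%), at Unc5b, Ncam1 and 2 regions of Sema3e, with differences from -1.45 at Sema3e to -0.45 at Ncam1. Camk2d, a calcium-dependent kinase of the calcium and membrane channel list, had a region with a difference of -1.03. Ncam1, a neural adhesion molecule of young myotubes, turned to 0.04 after scaling.

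At muscle genes the share of control-only regions was close to the 1.68% of all peaks. Of 54 peaks nearest to structural genes of the myotube 1 (1.85%) was control-only, and of 115 at myogenic factors and fusion genes 2 (1.74%). Of the 19 peaks nearest to the shorter list of myotube markers 2 (10.5%) were control-only, at Tnnt3 and Cdh15, which the longer lists hold too. Tnnt3, the fast troponin T, had 6.63, 11.1 and 10.4 tags in C26 medium and 29.9, 18.2 and 24.7 in controls 985 bp before its start. Eya2, a coactivator of homeobox factors, had 10.1, 6.59 and 8.24 against 31.3, 16.9 and 23.2 tags. Cdh15, the muscle cadherin, had 2.34, 4.86 and 7.97 against 11.2, 9.45 and 6.92 tags in a region 69764 bp away, with overlap. Of the FOXO and atrophy ligase list 1 of 61 peaks (1.64%) was control-only, at Asb2, a ligase subunit, where the difference of -0.40 turned to 0.08 after scaling. Of the glucocorticoid and clock list 1 of 73 (1.37%) was, at Klf15, a target of the glucocorticoid receptor, with 3.90, 2.08 and 7.69 against 28.6, 11.5 and 23.2 tags (log2 difference -2.03). No control-only region was among the 143 peaks of the Wnt list, the 147 of the IL-6, STAT3 and NF-kB list or the 56 of the methionine cycle and methylation list. The Wnt list does not hold Nkd1, whose control-only region is given above. Among marker lists of other cell types, 1 of 20 endothelial peaks was control-only, at the receptor Tek, and 1 of 4 fat cell peaks, at Adipoq. The count was 0 of 1 epidermal, 7 tendon and bone, 4 neutrophil and macrophage and 12 colon carcinoma peaks. With so few peaks a count of 0 says nothing of whether a cell type was absent.

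The muscle RNA took no part in choosing the regions, and it was used to ask how the nearest genes were expressed in LLC and PBS muscle. The mice differ from the cultures in tumour, tissue and strain. The steps of the deposited values gave depths of 34.7 to 40.1 M read ends in LLC libraries and 34.0 to 37.9 M in PBS libraries. Of the 619 genes 552 were in the RNA table and 372 had a mean of at least 1 FPKM (fragments per kilobase and M reads). Limma on log2(FPKM + 1) called 0 of the 372 at an adjusted p under 0.05, and 0 of all 12981 genes tested (0%). The smallest limma adjusted p among the 372 was 0.108. The edgeR quasi-likelihood test on recovered reads also called 0 of the 372 and 0 of all genes. It put 12 lower (3.23%, against 2.22% of all genes) and 27 higher (7.26%, against 4.96%) at an unadjusted p under 0.05. At an unadjusted limma p under 0.05, 10 were lower (2.69%, against 1.82% of all genes) and 33 higher (8.87%, against 5.82%). The median log2 difference was 0.04, against 0.01 for all genes tested, with 214 above and 158 below 0. In simulated RNA data limma found 1 of 98 genes made to differ by 1 on the log2 scale and 22 of 102 made to differ by 2. These rates describe the simulated data and need not hold for the fit on log2(FPKM + 1). A share of 8.72% of the genes (54) was also nearest to a C26-only region, which is 6.63% of the 815 genes of those regions, and 74.2% were also nearest to a region called in all 6 libraries.

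Ckm, creatine kinase of muscle, was at 10623 to 12763 FPKM in LLC muscle and 8469 to 10195 FPKM in PBS muscle. RNA of other cell types differed widely between libraries of the same group. The 5 erythroid markers summed to 2228 to 7530 FPKM in LLC muscle and 1026 to 30293 FPKM in PBS muscle. In PBS 2 (14648 FPKM) and PBS 3 (30293 FPKM) their sum exceeded Ckm, and 5 of 5 were below 0 in log2 difference. The 8 neutrophil and macrophage markers summed to 206 to 8010 FPKM in LLC muscle and 111 to 9090 FPKM in PBS muscle, with 4 above and 4 below 0. The 6 epidermal markers summed to 61.0 to 1314 FPKM in LLC muscle and 0.515 to 108 FPKM in PBS muscle, with 6 of 6 above 0. The part of this RNA in the values of the nearest genes was not tested. The 8 nearest genes with the smallest p among those lower in LLC muscle were Pdgfrl, Marcks, Col6a2, Lrrc17, Gas2, Calm3, Col3a1 and Abat. Col6a2 had 24.0, 15.9 and 16.2 FPKM in LLC muscle, against 41.0, 50.1 and 26.1 FPKM in PBS muscle, a log2 difference of -1.0 (SE 0.28, limma adjusted p = 0.443). Col3a1 averaged 76.5 ± 18.7 FPKM in LLC muscle, against 156 ± 57.2 FPKM in PBS muscle, with overlap (adjusted p = 0.571). Pdgfrl, a receptor-like protein of connective tissue, had 3.42, 3.52 and 2.14 against 6.75, 7.91 and 4.79 FPKM (adjusted p = 0.410). Calm3, one of the calmodulin genes, had 136, 125 and 122 FPKM in LLC muscle, against 210, 158 and 158 FPKM in PBS muscle. All LLC values were below all PBS values at 7 of these 8 genes, and none passed the threshold. The 8 were picked for a small p in this same comparison, so their separation describes the choice. Across the whole matrix and adhesion list 21 of 34 genes were below 0 and 11 of these had an unadjusted limma p under 0.05. The other 13 were above 0, 4 of them at that p, and 0 of the list passed the adjusted threshold. Over all genes tested 47.0% were below 0, and 1.82% were lower and 5.82% higher at that p. Of the tendon and bone markers 6 of 6 were below 0. Their summed levels were 15.1 to 189 FPKM in LLC muscle, against 294 to 414 FPKM in PBS muscle. The part of such tissue in the matrix values was not tested, and in bulk muscle fewer cells of a type cannot be told apart from less RNA per cell.

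Higher in LLC muscle with the smallest p were Entpd1, Acadl, Pdlim1, Slc52a3, Cltb, Irf2bpl, Adgrl4 and Tek. Entpd1, the ectonucleotidase CD39 of vessels and leukocytes, had 16, 16 and 17.6 FPKM in LLC muscle, against 6.85, 7.68 and 7.30 FPKM in PBS muscle (log2 difference 1.08, SE 0.10, limma adjusted p = 0.108). Acadl, a mitochondrial dehydrogenase of fatty acid oxidation, had 147, 154 and 149 against 88.4, 79.7 and 93.9 FPKM (adjusted p = 0.153). Replicates at both genes lay far closer to each other than to the other group. Pdlim1, an actin-associated protein, averaged 59.3 ± 8.02 FPKM in LLC muscle, against 31.0 ± 5.69 FPKM in PBS muscle (SD, n = 3 each; adjusted p = 0.232). Cltb, a clathrin light chain whose promoter window lies wholly inside a control-only region, averaged 41.3 ± 2.54 against 28.3 ± 2.13 FPKM (limma adjusted p = 0.285). Slc52a3, a riboflavin transporter, averaged 2.20 ± 0.16 against 1.06 ± 0.06 FPKM. Tek, the angiopoietin receptor, had 14.5, 14.0 and 16.1 against 10.00, 8.60 and 5.99 FPKM, and Adgrl4, a receptor of endothelium, averaged 14.5 ± 2.01 against 8.20 ± 1.61 FPKM. Tek, picked here for its small p, is itself 1 of the 6 endothelial markers. Of these markers, Tek included, 5 of 6 were above 0. Their summed levels were 184 to 226 FPKM in LLC muscle, against 90.0 to 111 FPKM in PBS muscle, and none of the 6 was at 0. Their part in the values of Tek, Adgrl4 and Entpd1 was not tested.

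**Figure D5:**
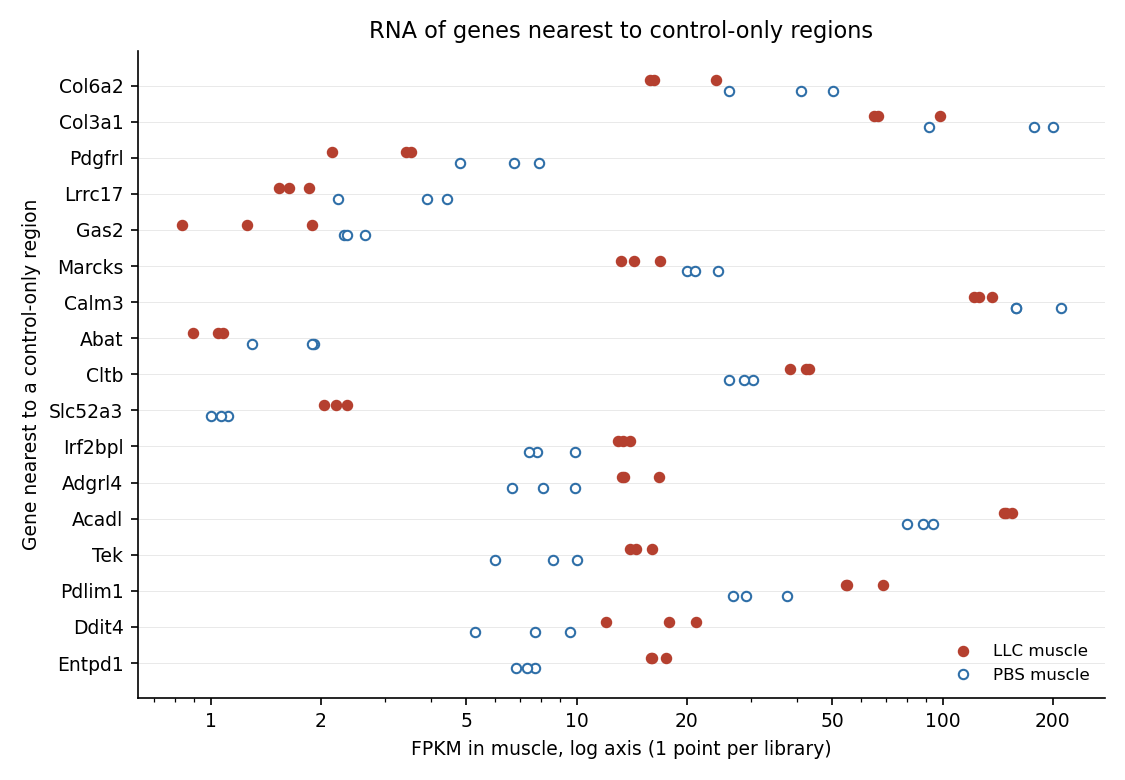
FPKM in each muscle library (log axis, 1 point per library) for Ddit4 and for the 16 genes nearest to control-only regions with the smallest limma p in either direction, LLC as filled red points above PBS as open blue points, ordered by log2 difference. The LLC points lie apart from the PBS points at each gene but Col3a1, and no gene passed the adjusted threshold. The 16 genes were picked by p in this comparison, so their separation describes the choice.

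Of the genes nearest to the 10 strongest control-only regions, 7 were tested in the muscle RNA, and 0 passed the adjusted threshold. Elk3 had 10.5, 10.9 and 10.5 FPKM in LLC muscle, against 6.58, 8.43 and 6.37 FPKM in PBS muscle (limma log2 difference 0.53, adjusted p = 0.386), and Ccn1 averaged 25.3 ± 6.51 against 15.7 ± 2.41 FPKM (adjusted p = 0.590). Cirbp and Celf2 overlapped between the groups, and Nrg1 and Grem1 were below 1 FPKM on average and not tested. Ddit4 had 12.1, 17.9 and 21.2 FPKM in LLC muscle, against 5.27, 7.68 and 9.62 FPKM in PBS muscle, apart but not past the threshold (adjusted p = 0.410). Over all genes tested 47.0% were below 0, and 5.82% were higher and 1.82% lower at an unadjusted limma p under 0.05. Of the IGF, insulin and mTOR list 24 of 32 genes were above 0 and 8 below. At that unadjusted p 3 genes of the list were higher and 0 lower, and 0 of the list passed the adjusted threshold. Of its genes with a control-only region, Igfbp5 averaged 88.6 ± 25.7 FPKM in LLC muscle, against 134 ± 33.0 FPKM in PBS muscle, and Igf1 5.67 ± 1.85 against 6.74 ± 2.16 FPKM, both with overlap. Akt1, Rptor and Sesn2 overlapped as well. Jag2 and Smad7 had no overlap, at 9.57 ± 0.67 against 6.17 ± 1.18 FPKM and at 3.45 ± 0.41 against 1.99 ± 0.52 FPKM, with limma adjusted p of 0.422 and 0.481.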

How the data were processed

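ATAC-seq of C2C12 myotubes and polyA RNA-seq of mouse muscle were measured in 3 libraries per group. The submitters' processing notes name Bowtie2, HISAT2, MACS2, HOMER and DESeq2 with GRCm38 and mm10. Their versions and roles, duplicate handling and the Tn5 offset are not given in these sources. Per the file headers, the deposited ATAC signal is tags per merged peak scaled to 10 M tags (M, 10 to the power of 6), annotated with HOMER in mm10, and the peak lists were called per library. Per the file headers, the deposited FPKM values were made by the authors with HOMER from both strands, so overlapping genes and near-identical copies cannot be separated. No sample column was left over (0).

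From these values log2(value + 1) was tested with limma 3.58.1 in R 4.3.3 (trend, two-sided, Benjamini-Hochberg, threshold 0.05) over all peaks with a mean of at least 5 and all genes that averaged at least 1 FPKM. Whole read ends came back for 100% of the values checked within a tolerance of 0.1 and were tested with edgeR 4.0.16. Nearest genes were matched by symbol, 552 of 619, and 2 names had become dates. Named regions were the 10 highest in control signal, the 10 lowest in log2 difference, 15 near a start, up to 4 per gene list, 10 genes with most regions and Ddit4. Named RNAs were the 8 smallest p in each direction and those of the 10 strongest regions. The Igf1 region was named outside these rules. The RNA values of Jag2, Smad7, Igf1, Igfbp5 and Ckm were named after values were seen. Values of some regions and genes that these rules name are not reported here. Members, lists and rules were chosen with earlier results of these data known. Sequences are from RefSeq promoters of GRCm38.p6. Alternatives were other pseudocounts, filters and scalings, a replicate block, each library left out, and scaling to tags in peaks, the last added after seeing the data.

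Limma was also run on simulated data with 37065 peaks and 14987 genes, which are not the 37358 peaks and 12981 genes tested here. In the simulated peaks 89 of 118 changes of 1 on the log2 scale and 81 of 82 changes of 2 were found. These rates describe the simulated data. They need not hold for the deposited ATAC signal, with its spread in the share of tags inside peaks, or for log2(FPKM + 1). Figures used Python 3.11.15 and matplotlib 3.10.9.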

Additional observations from a re-analysis of the deposited data

How the results depend on the processing

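The median log2 difference of control-only regions was below 0 under every setting run. That direction describes their choice by peak calls in these same libraries and is no independent test. The number called by limma depended on scaling and on single libraries. With a mean of at least 20, 29 control-only regions, 338 peaks lower and 133 peaks higher were called. Median-of-ratios scaling gave 312 control-only regions (median log2 difference -0.70), 4753 lower and 6368 higher. Quantile normalization gave 417, 5414 and 5600. edgeR on recovered read ends gave 323 (-0.73), 4783 and 6571, and scaling to tags in peaks, chosen after seeing the data, 312 (-0.70), 4920 and 6263. Leaving out 1 library gave 20 to 562 control-only regions lower, 32 to 19854 peaks lower and 92 to 1954 higher, the extremes for control-only regions coming without C26 1 and without control 2. Without control 1 it was 275, and without C26 2, C26 3 or control 3 it was 25, 27 and 28. The cause was not tested. Library numbers did not pair samples (ATAC correlations of -0.01, 0.01 and -0.02, RNA -0.09, 0.60 and -0.60), and with a replicate block 159 control-only regions, 656 peaks lower and 415 higher were called. In the RNA, 0 nearest genes were called under every setting. Those lower at an unadjusted limma p under 0.05 numbered 5 with a mean of at least 5 FPKM (2.24%, beside 1.82% of all genes). Within 10000 bp of a region 3 were lower (2.11%, beside 1.82%) and 9 higher (6.34%, beside 5.82%). With 1 library left out 4 to 43 were lower, beside 0.709% to 13.4% of all genes. The 43 (11.6%) came without PBS 1, beside 13.4%. The log2 difference of Igf1 ran from -0.44 to 0.00249 with 1 library left out. Control-only regions with a control mean of at least 20 had a median width of 446 bp. At named regions 142 of the alternative values moved by over 1 SD of the controls and 883 did not, and at 24 named RNA genes the direction turned once, at Igf1. The median control-only region averaged 7.75 tags per 10 M in C26 medium, and how precision varies with signal was not tested.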
